A study of Rattus norvegicus with 6 samples.

Results

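The genes described here are the ABC transporters of subfamilies A, B, C, D and G and the organic ion carriers of the Slco and Slc22a families, without Abcb11, Abca1, Abcg5 and Abcg8. A probe set, the group of short probes that reads 1 transcript on the array, was taken when its only gene symbol began with Abca, Abcb, Abcc, Abcd, Abcg, Slco or Slc22a. This gave 77 probe sets of 58 genes, of 31042 probe sets and 14217 genes on the array. Of these, 49 probe sets of 39 genes had a mean over the 6 arrays above 2.82 (log2), the 40th percentile of all probe sets, and are called measured below. The choice used symbols alone and no measured value.

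Tienilic acid (TA) is a diuretic that also promotes urate excretion and was withdrawn after cases of liver injury. It, or its vehicle, was given by mouth to male Sprague Dawley rats, whose livers were sampled. The TA groups were 2 rats given 100 mg/kg at 0 and 16 h and killed at 24 h, and 2 rats given 100 mg/kg once and killed at 6 h, with 1 Affymetrix Rat230_2 array per rat. The vehicle groups were 1 array of RNA pooled from 2 rats given sodium bicarbonate at 0 and 16 h and killed at 24 h, and 1 array of RNA pooled from 2 rats given it once and killed at 6 h. TA was itself dissolved with sodium bicarbonate, so that all 8 animals received it. No genotype differed between the groups, and no source used here gives the rats' age. The 24 h groups differ from the 6 h groups in time, in the number of doses and in the time since the last dose, and these cannot be told apart. A pool gives 1 value with no spread between its animals, so that every error below comes from the 2 TA animals of each time. Values are the deposited log2 values, differences are log2 differences, and 1 unit is a 2-fold difference. Levels of different genes on the array are not compared with each other.

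Hepatocytes take organic anions, cations and bile acids from the blood through carriers of the Slco and Slc22a families in the sinusoidal, or basolateral, membrane. ABC transporters, which use ATP to move their substrates, then export phospholipids, glutathione and glucuronide conjugates and drugs across the canalicular membrane into bile, or back into blood across the basolateral membrane. Other ABC proteins work in peroxisomes, mitochondria and lysosomes. In liver many of these genes are known to be controlled by nuclear receptors such as Nr1i2 (PXR) and Nr1i3 (CAR), by the antioxidant factor Nfe2l2 (Nrf2) and by liver factors such as Hnf4a. Bulk liver RNA cannot tell fewer cells of a type from less RNA per cell.

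Promoters are shown for 4 genes that were lower at 24 h than at 6 h on every array (Abcb4, Abcc2, Slco1a4 and Slco1b2) and for 2 genes whose 2 measured probe sets were at least 2-fold apart between the TA animals at both times (Slc22a8 and Abcc9). Each is the 250 bases before the annotated gene start in RefSeq, build GRCr8, written 5′ to 3′ on the strand of the gene. Abcb4 is at chr4:26164146-26164395 (reverse strand), Abcc2 at chr1:252613625-252613874 (forward strand) and Slco1a4 at chr4:176495847-176496096 (reverse strand). Slco1b2 is at chr4:176282334-176282583 (forward strand), Slc22a8 at chr1:214927034-214927283 (forward strand) and Abcc9 at chr4:177386349-177386598 (reverse strand). Capitals mark any of 4 motifs, read on both strands.
Abcb4: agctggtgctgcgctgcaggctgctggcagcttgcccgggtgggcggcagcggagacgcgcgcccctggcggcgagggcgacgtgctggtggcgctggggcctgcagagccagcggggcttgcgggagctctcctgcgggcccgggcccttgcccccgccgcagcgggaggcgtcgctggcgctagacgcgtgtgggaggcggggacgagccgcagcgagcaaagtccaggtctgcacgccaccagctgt
Abcc2: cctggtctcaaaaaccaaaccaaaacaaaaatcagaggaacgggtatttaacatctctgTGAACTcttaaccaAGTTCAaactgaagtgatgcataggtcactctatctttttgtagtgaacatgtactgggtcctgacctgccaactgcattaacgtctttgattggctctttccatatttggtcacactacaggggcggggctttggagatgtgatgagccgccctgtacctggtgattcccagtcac
Slco1a4: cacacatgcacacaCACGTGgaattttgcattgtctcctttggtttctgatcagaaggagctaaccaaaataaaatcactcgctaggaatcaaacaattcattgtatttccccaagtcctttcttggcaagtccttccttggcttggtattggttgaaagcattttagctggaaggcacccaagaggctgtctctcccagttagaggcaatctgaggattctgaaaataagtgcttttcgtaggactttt
Slco1b2: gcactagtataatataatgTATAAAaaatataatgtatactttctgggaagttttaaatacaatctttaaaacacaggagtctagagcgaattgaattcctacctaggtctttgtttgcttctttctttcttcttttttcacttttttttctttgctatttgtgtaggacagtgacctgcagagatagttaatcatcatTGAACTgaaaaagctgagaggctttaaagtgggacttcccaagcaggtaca
Slc22a8: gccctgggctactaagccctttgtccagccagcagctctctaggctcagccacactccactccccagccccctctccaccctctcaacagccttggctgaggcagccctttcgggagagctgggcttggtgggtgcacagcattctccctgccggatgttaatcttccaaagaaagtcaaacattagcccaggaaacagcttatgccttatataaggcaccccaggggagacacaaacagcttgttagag
Abcc9: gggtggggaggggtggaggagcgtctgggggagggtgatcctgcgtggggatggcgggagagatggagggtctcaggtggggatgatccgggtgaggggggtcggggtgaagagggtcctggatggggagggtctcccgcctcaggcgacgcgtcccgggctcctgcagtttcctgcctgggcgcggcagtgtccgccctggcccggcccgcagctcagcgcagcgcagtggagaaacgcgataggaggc

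The motifs were the nuclear receptor half-site AGTTCA, the E-box CACGTG, the antioxidant response element core TGACNNNGC and the TATA box TATAAA, each searched separately, so that a base could belong to more than 1 of them. The Abcc2 promoter held AGTTCA at 2 places in opposite orientation, 191 and 177 bases before the start. The Slco1b2 promoter held AGTTCA at 51 bases and TATAAA at 231 bases. The Slco1a4 window held CACGTG at 236 bases, and the windows of Abcb4, Slc22a8 and Abcc9 held none of the 4. Of the 58 genes, 50 had a promoter in the RefSeq table, and 7 of these (14%) held AGTTCA, against 12.2% of all 33469 promoters of the same length. TATAAA was in 6 of 50 (12%), against 12.9% of all promoters, CACGTG in 2 (4%) against 5.59% and TGACNNNGC in 2 (4%) against 10.1%. A match is a run of letters and not a bound site.

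The liver label was checked against 7 hepatocyte markers with a probe set, which were all measured, with albumin between 16.54 and 16.67 on every array. The summed level of these markers lay between 18.29 and 18.31 on the TA arrays of 24 h, 18.31 in the vehicle pool of 24 h, 18.33 and 18.40 on the TA arrays of 6 h and 18.39 in the vehicle pool of 6 h. Array medians were between 3.27 and 3.31, and arrays correlated at 0.984 to 0.994 across probe sets. By the staining times in the array settings, the vehicle pool of 6 h and animal 1 of TA at 6 h went through a first fluidics run, the station's washing and staining of the arrays, and the other 4 arrays through a second. The 24 h comparison of TA with vehicle therefore lies within 1 run, and the 6 h comparison does not.

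None of the 49 measured probe sets differed between TA and vehicle at 24 h or at 6 h by limma, the moderated linear model fitted over all 18625 measured probe sets, with p-values adjusted over all of them and called under 0.05. The smallest adjusted p among them was 0.81 at 24 h and 0.75 at 6 h. Over all probe sets limma called 1 at 24 h (0.00537%) and 0 at 6 h (0%). At an unadjusted p under 0.05 there were 4 of 49 (8.16%) at 24 h, against 5.28% of all probe sets, and 7 of 49 (14.3%) at 6 h, against 5.84%. The 7 at 6 h hold 2 probe sets each of Abcb1a and Slco1a4, besides Abcb4, Abcb9 and Abcc1, so that some genes are counted more than once. For the mean of the 2 times 0 of 49 passed limma's test, against 0.00537% of all probe sets, with a smallest adjusted p of 0.74 and 7 (14.3%) at an unadjusted p under 0.05, against 6.42%. What follows gives the levels and differences as measured, and none of these single genes is called as different.

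Over the 39 measured genes the median difference of TA from vehicle was -0.02 at 24 h and -0.02 at 6 h, against -0.01 and -0.03 over all 10449 measured genes. At 24 h 11 of the 39 genes were higher in both TA animals than in the pool and 16 were lower in both. At 6 h 11 were higher in both and 11 lower in both. The shares at 24 h were 28.2% higher and 41% lower, against 28.1% and 34.5% of all measured genes. The shares at 6 h were 28.2% higher and 28.2% lower, against 22.9% and 38.4%. Since 1 pool serves both animals of a time, a shared direction in the pair is not independent evidence.

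**Figure D1:**
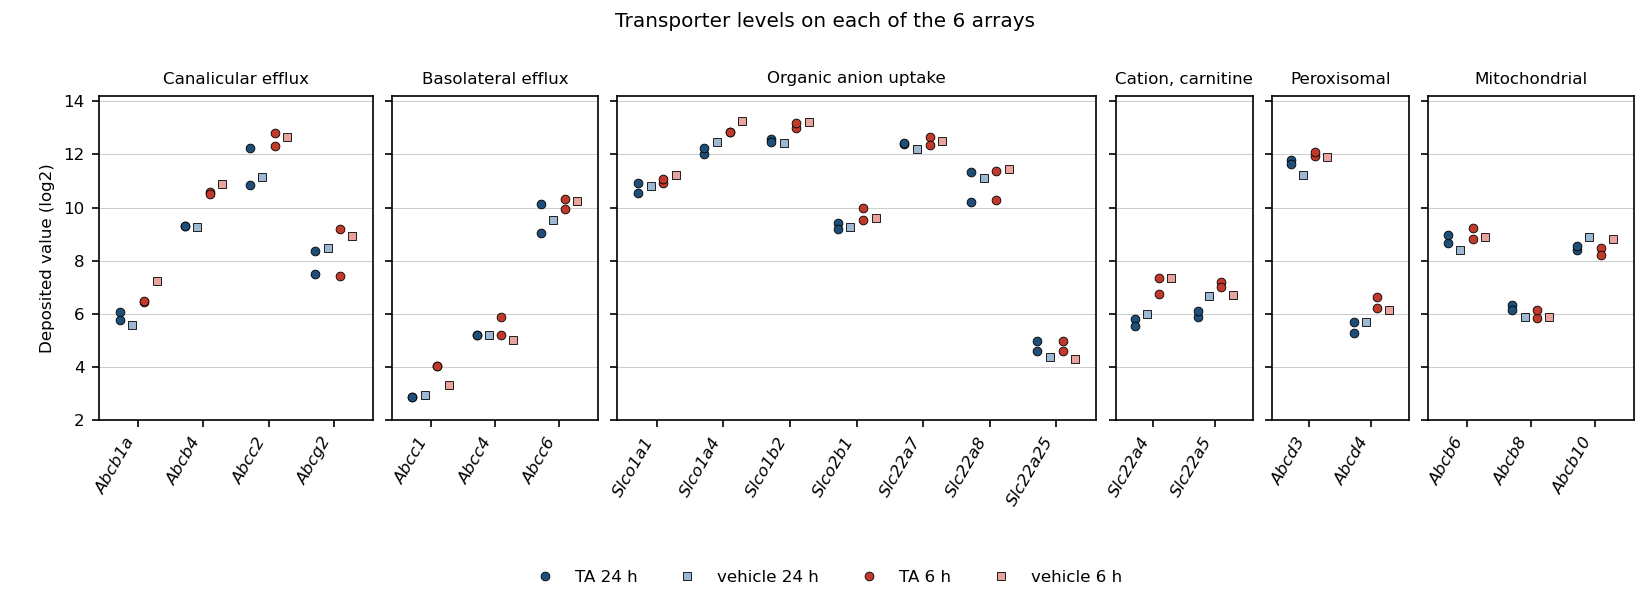
Deposited log2 values (y axis) of the measured liver transporters on each of the 6 arrays, grouped by role, with TA as circles and vehicle pools as squares. Abcb4 and Slc22a4 sit lower on all 24 h arrays than on all 6 h arrays, and levels are to be read within a gene only.

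Among canalicular exporters, Abcb1a, which makes the drug efflux pump P-glycoprotein, was lower than vehicle in both TA animals at 6 h and not at 24 h. Its level was 6.05 and 5.76 in TA livers at 24 h, against 5.56 in the vehicle pool. At 6 h it was 6.43 and 6.48 in TA livers, against 7.22 in the vehicle pool. The difference was 0.35 ± 0.16 at 24 h and -0.76 ± 0.16 at 6 h (SE, n = 2 TA animals and 1 pool; limma adjusted p = 1 and 0.76). A second Abcb1a probe set had 4.97 and 5.24 in TA livers at 6 h, against 5.91 in the vehicle pool, and lay between 5.11 and 5.14 on all 24 h arrays. For the first probe set the vehicle pool of 6 h was the highest of the 6 arrays and the vehicle pool of 24 h the lowest, so that against the pool of 24 h the TA livers of 6 h were higher. Another probe set, shared by Abcb1a and its near copy Abcb1b and left out of the counts for that reason, had 6.47 and 6.14 in TA livers at 24 h against 5.41 in the vehicle pool, and 6.26 and 6.71 in TA livers at 6 h against 6.92 in the vehicle pool. Which of the 2 genes it reads cannot be told apart.

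Abcb4, which moves phosphatidylcholine into bile, was at 9.31 and 9.32 in TA livers at 24 h, against 9.26 in the vehicle pool. The 6 h values were 10.59 and 10.53 in TA livers, against 10.89 in the vehicle pool, a difference of -0.34 ± 0.10 (SE; limma adjusted p = 0.83). Its 3 arrays of 24 h lay within 0.06 of each other, and all were far below the 3 arrays of 6 h. Abcc2, the canalicular exporter of bilirubin glucuronides and glutathione conjugates, was at 12.23 and 10.84 in TA livers at 24 h, around the vehicle pool at 11.14. In the 6 h groups it was at 12.79 and 12.31 in TA livers, again around the vehicle pool at 12.67. Abcg2, a pump of drugs and conjugates, was at 8.35 and 7.48 in TA livers at 24 h, against 8.46 in the vehicle pool. Abcg2 at 6 h was at 7.44 and 9.17 in TA livers, against 8.92 in the vehicle pool. For Abcc2 and Abcg2 the animals of 1 group lay further apart than TA lay from vehicle.

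Among basolateral exporters, Abcc1, which exports glutathione and its conjugates, was higher than vehicle in both TA animals at 6 h. It was at 2.87 and 2.86 in TA livers at 24 h, against 2.93 in the vehicle pool. At 6 h it was at 4.05 and 4.02 in TA livers, against 3.33 in the vehicle pool, a difference of 0.70 ± 0.09 (SE) with the smallest adjusted p of any transporter at that time (limma, 0.75). The 24 h values lie at the dense floor of the table, near 2 to 3, where differences are compressed. Abcc4, which exports cyclic nucleotides and bile acids, was at 5.19 and 5.19 in TA livers at 24 h, against 5.20 in the vehicle pool. At 6 h Abcc4 was at 5.18 and 5.87 in TA livers, against 4.996 in the vehicle pool, so that the distance rested mostly on animal 2. Abcc6, a liver protein whose loss causes ectopic mineralisation in humans, was at 9.05 and 10.13 in TA livers at 24 h, around the vehicle pool at 9.53. Its 6 h values were 10.31 and 9.96 in TA livers, around the vehicle pool at 10.24. Abcc3, a basolateral exporter of glucuronides, was not above the filter, with values between 2.45 and 2.55 on all 6 arrays.

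Among carriers that take up organic anions, Slco1a4, an uptake carrier of bile acids and cardiac glycosides, was lower than the vehicle pool in all 4 TA animals. It was at 12.00 and 12.23 in TA livers at 24 h, against 12.48 in the vehicle pool. The 6 h values were 12.86 and 12.85 in TA livers, against 13.26 in the vehicle pool. The difference was -0.37 ± 0.14 at 24 h and -0.41 ± 0.14 at 6 h (SE; limma adjusted p = 0.95 and 0.85). A second probe set of Slco1a4 gave 8.63 and 8.67 in TA livers at 24 h against 8.995 in the vehicle pool, and 9.53 and 9.61 in TA livers at 6 h against 10.02 in the vehicle pool. The TA livers of 6 h nonetheless lay above the vehicle pool of 24 h for both probe sets, so the direction at 6 h depends on which pool is used.

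Slco1b2, the main hepatic carrier of this family for bile acids and statins, was at 12.57 and 12.46 in TA livers at 24 h, against 12.44 in the vehicle pool. Slco1b2 at 6 h was at 12.99 and 13.19 in TA livers, against 13.22 in the vehicle pool. Slco1a1, an anion carrier next to Slco1a4 on chromosome 4, was at 10.91 and 10.55 in TA livers at 24 h, around the vehicle pool at 10.82, and at 10.94 and 11.06 in TA livers at 6 h, against 11.23 in the vehicle pool. By these probe sets TA and vehicle lay within 0.3 of each other for both genes at either time, while a second probe set of Slco1b2 was lower than the pool in all 4 TA animals, with differences of -0.28 at 24 h and -0.55 at 6 h. Slco2b1, a carrier of sulfated steroids, was at 9.43 and 9.19 in TA livers at 24 h, around the vehicle pool at 9.26, and at 10.00 and 9.54 in TA livers at 6 h, around the vehicle pool at 9.62. Slc22a7, the anion transporter Oat2, was at 12.39 and 12.43 in TA livers at 24 h, against 12.19 in the vehicle pool, with 12.66 and 12.35 in TA livers at 6 h, around the vehicle pool at 12.52. Slc22a25, a little studied anion carrier beside Slc22a8 on chromosome 1, was higher than the pool in all 4 TA animals. Its values were 4.99 and 4.58 in TA livers at 24 h against 4.38 in the vehicle pool, and 4.58 and 4.97 in TA livers at 6 h against 4.28 in the vehicle pool, with limma adjusted p = 1 and 0.98.

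The carnitine carrier Slc22a5 (Octn2) lay on opposite sides of its vehicle pool at the 2 times. It was at 5.86 and 6.12 in TA livers at 24 h, against 6.68 in the vehicle pool. In the 6 h groups it was at 7.21 and 6.995 in TA livers, against 6.71 in the vehicle pool. The differences were -0.69 ± 0.18 at 24 h and 0.39 ± 0.18 at 6 h (SE; limma adjusted p = 0.90 and 0.93), while the 2 pools differed by 0.03. Slc22a4 (Octn1), the ergothioneine carrier, was at 5.80 and 5.54 in TA livers at 24 h, against 5.98 in the vehicle pool. Its 6 h values were 6.76 and 7.35 in TA livers, against 7.33 in the vehicle pool. The cation carrier Slc22a3 was not above the filter.

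Abcd3, which brings branched-chain and dicarboxylic fatty acids into peroxisomes, was at 11.78 and 11.64 in TA livers at 24 h, against 11.23 in the vehicle pool. Abcd3 at 6 h was at 11.94 and 12.09 in TA livers, against 11.91 in the vehicle pool. Its difference was 0.48 ± 0.13 at 24 h and 0.11 ± 0.13 at 6 h (SE; limma adjusted p = 0.90 and 1), and at 24 h the vehicle pool was the lowest of the 6 arrays. Abcd4, of the same subfamily and in humans a lysosomal protein of vitamin B12 handling, was at 5.68 and 5.28 in TA livers at 24 h, against 5.71 in the vehicle pool, with 6.64 and 6.23 in TA livers at 6 h, against 6.13 in the vehicle pool.

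Of the mitochondrial transporters, Abcb10, which supports haem synthesis, was lower than the pool in all 4 TA animals by the first of its 2 measured probe sets. It was at 8.41 and 8.57 in TA livers at 24 h, against 8.87 in the vehicle pool, with 8.48 and 8.21 in TA livers at 6 h, against 8.83 in the vehicle pool. The difference was -0.38 ± 0.17 at 24 h and -0.48 ± 0.17 at 6 h (SE; limma adjusted p = 1 and 0.85), and the 2 pools differed by 0.04. The second probe set had 3.68 and 4.10 in TA livers at 24 h, around the vehicle pool at 3.83, and 3.63 and 3.70 in TA livers at 6 h against 3.70 in the vehicle pool, so that it did not show this. Abcb6, linked to porphyrin transport, was at 8.67 and 8.95 in TA livers at 24 h, against 8.38 in the vehicle pool, with 9.24 and 8.83 in TA livers at 6 h, around the vehicle pool at 8.91. Abcb8 was at 6.32 and 6.15 in TA livers at 24 h, against 5.88 in the vehicle pool, with 5.84 and 6.12 in TA livers at 6 h, around the vehicle pool at 5.88.

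Abcb9, a lysosomal peptide transporter, had the largest difference of any measured transporter from vehicle at 24 h. It was at 2.86 and 2.84 in TA livers at 24 h, against 4.46 in the vehicle pool, with 2.84 and 2.75 in TA livers at 6 h, against 2.48 in the vehicle pool. The difference was -1.61 ± 0.10 at 24 h (SE; limma adjusted p = 0.81). One array, the vehicle pool of 24 h, held the only value above the dense floor, and the other 5 arrays lay between 2.48 and 2.86.

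Among the A subfamily, whose members move lipids, Abca3 was at 8.51 and 8.38 in TA livers at 24 h, against 8.22 in the vehicle pool, with 8.85 and 8.74 in TA livers at 6 h, around the vehicle pool at 8.80. Abca8a was at 10.70 and 10.76 in TA livers at 24 h, against 10.91 in the vehicle pool, with 10.40 and 11.09 in TA livers at 6 h, against 11.24 in the vehicle pool. Its neighbour on chromosome 10, Abca8, was at 6.97 and 7.91 in TA livers at 24 h, against 8.24 in the vehicle pool, with 7.98 and 8.79 in TA livers at 6 h, around the vehicle pool at 8.19. The animals of 1 TA group differed by as much as 0.69 for Abca8a, at 6 h, and 0.93 for Abca8, at 24 h. Abca2 stayed between 2.99 and 3.61 on all 6 arrays.

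The fold counts place these genes beside the whole array. At least 1.5-fold higher than the pool in both TA animals was seen for 0 of 49 probe sets at 24 h, against 0.918% of all probe sets, and for 2 of 49 at 6 h (4.08%), Abcc1 and the second probe set of Slco2a1, against 0.821%. At least 1.5-fold lower was seen for 1 of 49 at 24 h (2.04%), Abcb9, against 1.54%, and for 2 of 49 at 6 h (4.08%), both probe sets of Abcb1a, against 1.73%. In all 4 TA animals 0 of 49 were at least 1.2-fold higher than their pool, against 0.397% of all probe sets. At least 1.2-fold lower in all 4 were 2 of 49 (4.08%), the first probe set of Abcb10 and the second of Slco1a4, against 1.11%. The first probe set of Slco1a4 was outside this limit by 1 animal, at -0.25 in animal 2 of 24 h.

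The 2 measured probe sets of Slco2a1, the prostaglandin transporter, went opposite ways at 6 h. One was at 12.13 and 11.63 in TA livers at 6 h, against 12.44 in the vehicle pool, and the other at 5.51 and 5.80 in TA livers, against 4.68 in the vehicle pool. No direction is given for this gene. Of 10 genes with 2 measured probe sets, Slco2b1 was the other whose 6 h differences lay more than 0.5 apart, at 0.15 and 0.75. The next were Abcb10 at -0.48 and -0.04, Slco1b2 at -0.13 and -0.55 and Abcc9 at -0.53 and -0.14. The second probe set of Slco2b1 was at 6.80 and 5.89 in TA livers at 6 h against 5.59 in the vehicle pool, and that of Slco1b2 at 11.20 and 11.70 in TA livers against 12.00 in the vehicle pool.

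**Figure D2:**
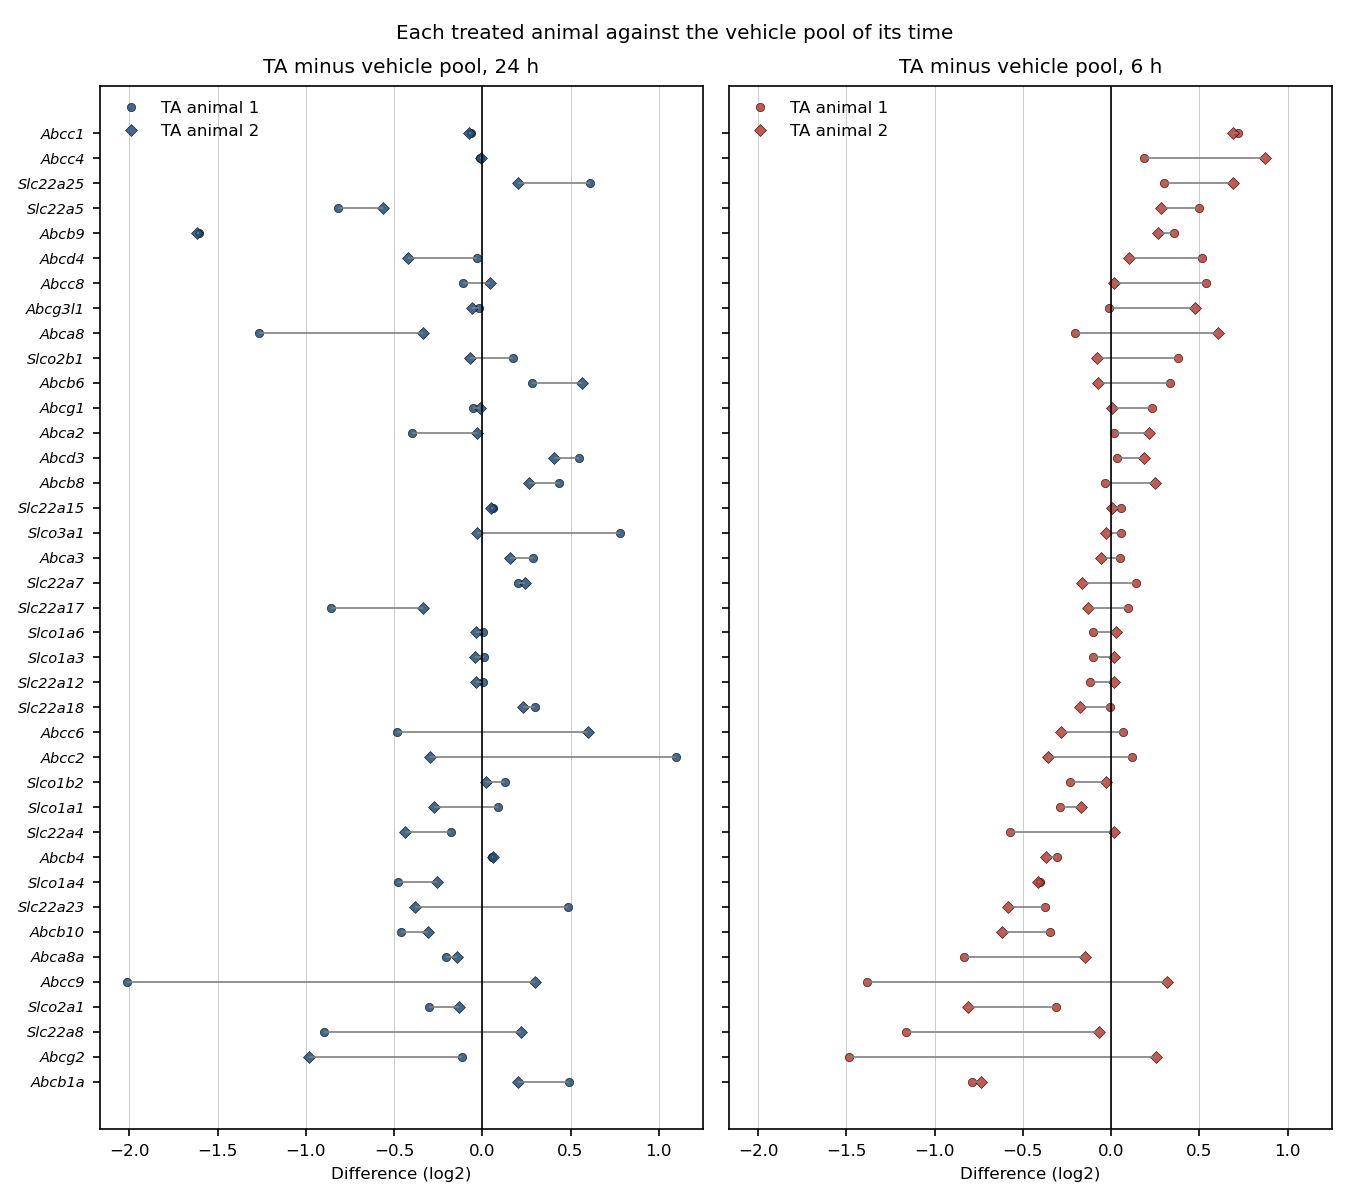
Log2 difference (x axis) of each TA animal from the vehicle pool of its time for the 39 measured genes (y axis), at 24 h on the left and 6 h on the right, with a line joining the 2 animals. Abcb9 lies at -1.61 on average at 24 h, and Abcc1 at 0.70 and Abcb1a at -0.76 at 6 h with both animals close together.

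Many of the transporters were lower at 24 h than at 6 h, in TA livers and in vehicle pools alike. Every array of 24 h was below every array of 6 h for 20 of the 49 measured probe sets (40.8%), against 14.1% of all measured probe sets. The reverse, every array of 24 h above every array of 6 h, held for 1 of 49 (2.04%), Abcb9, against 10.9%. For Abcb9 the gap was only 0.003, between TA livers at the dense floor, at 2.840 at 24 h and 2.838 at 6 h. Counted by gene, each by its probe set with the highest mean, 18 of 39 (46.2%) were lower at 24 h on every array, against 15.1% of all measured genes. These were the canalicular exporters Abcb1a, Abcb4 and Abcc2, the uptake carriers Slco1a1, Slco1a4, Slco1b2 and Slco2b1, the carnitine and ergothioneine carriers Slc22a5 and Slc22a4, Abcd3 and Abcd4, Abcc1, Abca2, Abca3, the sterol exporter Abcg1, Slc22a15, Slc22a17 and Slc22a18. The second measured probe sets of Abcb1a, Abca3 and Slco2b1 overlapped between the times, and that of Abcb1a differed by 0.02 between the TA livers of 24 h and 6 h. The gap was small for others: for Slc22a15 all 6 arrays lay between 3.15 and 3.28.

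The vehicle pools, from rats that received no TA, are among the arrays compared. Between the pools of 24 h and 6 h the difference was -1.66 for Abcb1a, -1.63 for Abcb4, -1.53 for Abcc2, -1.35 for Slc22a4, -0.78 for Slco1a4 and -0.78 for Slco1b2, each from 1 array per time. In TA livers the difference between 24 h and 6 h was -0.55 for Abcb1a, -1.24 for Abcb4, -1.01 for Abcc2, -1.38 for Slc22a4, -0.74 for Slco1a4 and -0.58 for Slco1b2 (n = 2 animals per time). Slc22a5 and Abcc1 differed more in TA livers, by -1.11 and -1.17, than in the pools, by -0.03 and -0.40, a distance that limma did not call (adjusted p = 1 for each). The median over the 39 genes was -0.29 in TA livers and -0.33 in the pools, against -0.002 and -0.009 over all measured genes. Across the 39 genes the 2 differences correlated at 0.6 and had the same sign in 33, against 0.53 and 7097 of the 10449 measured genes, with genes sharing the same arrays.

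With a limit of 1.5-fold between every array of 24 h and every array of 6 h, 2 of 49 probe sets remained lower (4.08%), Abcb4 and Slc22a4, against 0.591% of all probe sets, and 0 of 49 higher, against 0.703%. Abcb4 in TA livers was 2.36-fold lower at 24 h than at 6 h, and in the vehicle pools 3.11-fold lower. For Slc22a4 the same folds were 2.61 and 2.56. By limma on the TA livers 0 of 49 probe sets passed at an adjusted p under 0.05, and 0% of all probe sets did. The smallest adjusted p were 0.14 for Abcb4 (-1.24 ± 0.08) and 0.14 for Abcc1 (-1.17 ± 0.08), then 0.15 for the second probe set of Slco1a4 (-0.92 ± 0.08), each SE with n = 2 animals per time. At an unadjusted p under 0.05 there were 13 of 49 (26.5%), against 14.8% of all probe sets. The pools of 24 h and 6 h were at least 2-fold apart for 8 of 49 probe sets (16.3%), against 3.17% of all. These were Abcb4, Abcb9, Abcc2, Slc22a4, the first probe set of Abcb1a and the second probe sets of Abcc9, Slco1a4 and Slco1b2.

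The fluidics run moves in part with time, since 2 of the 3 arrays of 6 h were in the first run and all of 24 h in the second. Within the second run alone, with animal 2 of TA at 6 h as the only 6 h array, 32 of 49 probe sets (65.3%) were lower on all 3 arrays of 24 h, against 39.6% of all. Without animal 1 of TA at 6 h the count was 27 (55.1%, against 31.3% of all), and without animal 2 it was 23 (46.9%, against 19.2%). Without animal 1 of TA at 24 h it was 20 (40.8%, against 17.9%), and without animal 2 it was 23 (46.9%, against 18.1%). No source used here gives the hour of day at death, and its part in the result was not tested.

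**Figure D3:**
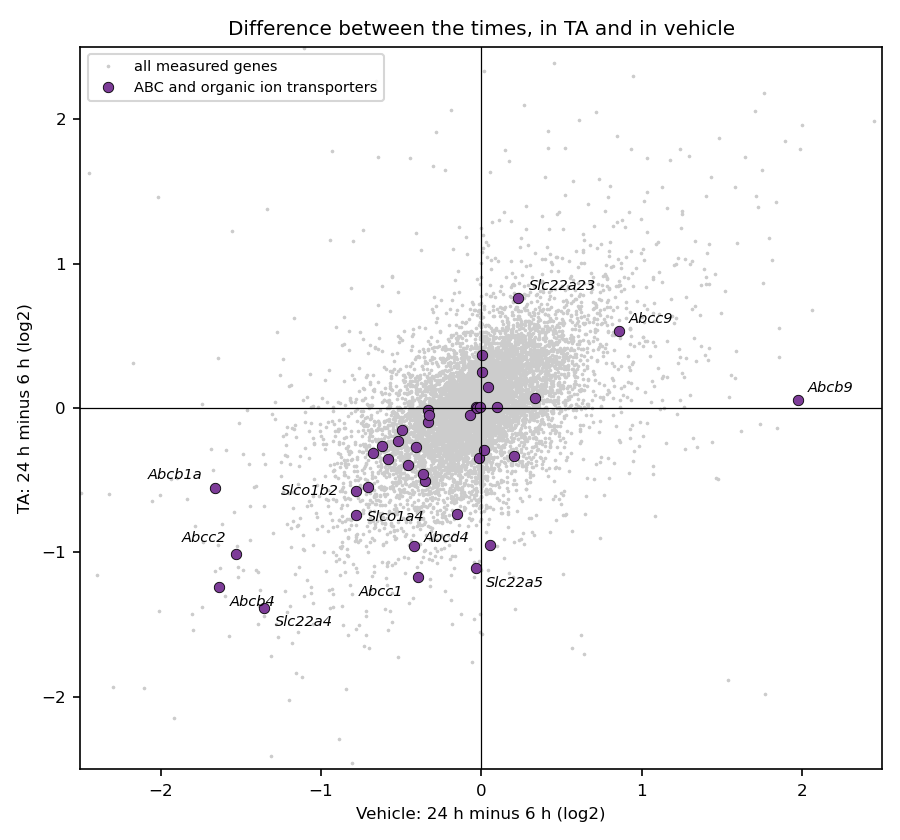
Log2 difference between 24 h and 6 h in TA livers (y axis, mean of 2 animals per time) against that in the vehicle pools (x axis, 1 array per time) for 10415 measured genes (grey), with 34 more outside the axes, and for the 39 transporters (purple). Most transporters lie in the lower left, with Abcb4 at -1.24 in TA and -1.63 in vehicle, and Abcb9 stands alone on the right.

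The difference of TA from vehicle did not pass limma's test for a change between 24 h and 6 h in any of the 49 probe sets. The smallest adjusted p was 0.85, for Abcb9, and 6 of 49 (12.2%) had an unadjusted p under 0.05, against 4.8% of all probe sets. Over the whole array limma called 1 probe set (0.00537%).

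Individual animals of 1 TA group differed widely for a few transporters. The 2 TA animals of 24 h were at least 2-fold apart for 8 of 49 probe sets (16.3%), against 2.89% of all, and those of 6 h for 5 of 49 (10.2%), against 2.24%. Slc22a8 (Oat3), an uptake carrier of organic anions better known from kidney, was at 10.22 and 11.33 in TA livers at 24 h, against 11.12 in the vehicle pool. At 6 h it was at 10.28 and 11.37 in TA livers, against 11.44 in the vehicle pool. Animal 1 was the low one each time. The second probe set of Slc22a8 had 7.93 and 9.14 in TA livers at 24 h against 9.15 in the vehicle pool, and 7.38 and 8.88 in TA livers at 6 h against 8.91 in the vehicle pool.

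Abcc9, a sulfonylurea receptor that forms potassium channels with a pore subunit, split the same animals. It was at 7.23 and 9.54 in TA livers at 24 h, around the vehicle pool at 9.24, and at 7.002 and 8.70 in TA livers at 6 h, around the vehicle pool at 8.38. A second probe set had 6.37 and 7.67 in TA livers at 24 h against 7.98 in the vehicle pool, and 6.05 and 7.14 in TA livers at 6 h around the vehicle pool at 6.73. Animal 1 was at least 2-fold below animal 2 at both times for 4 of 49 probe sets (8.16%), those of Slc22a8 and Abcc9, against 0.161% of all. These are 2 genes, each counted by 2 probe sets. The rule was not a planned one and takes the direction seen in these genes, so the share describes them and tests nothing. The 4 animals are different rats, and the numbers 1 and 2 mark no shared litter or day in the labels. Animal 1 of 24 h was in the second fluidics run and animal 1 of 6 h in the first.

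**Figure D4:**
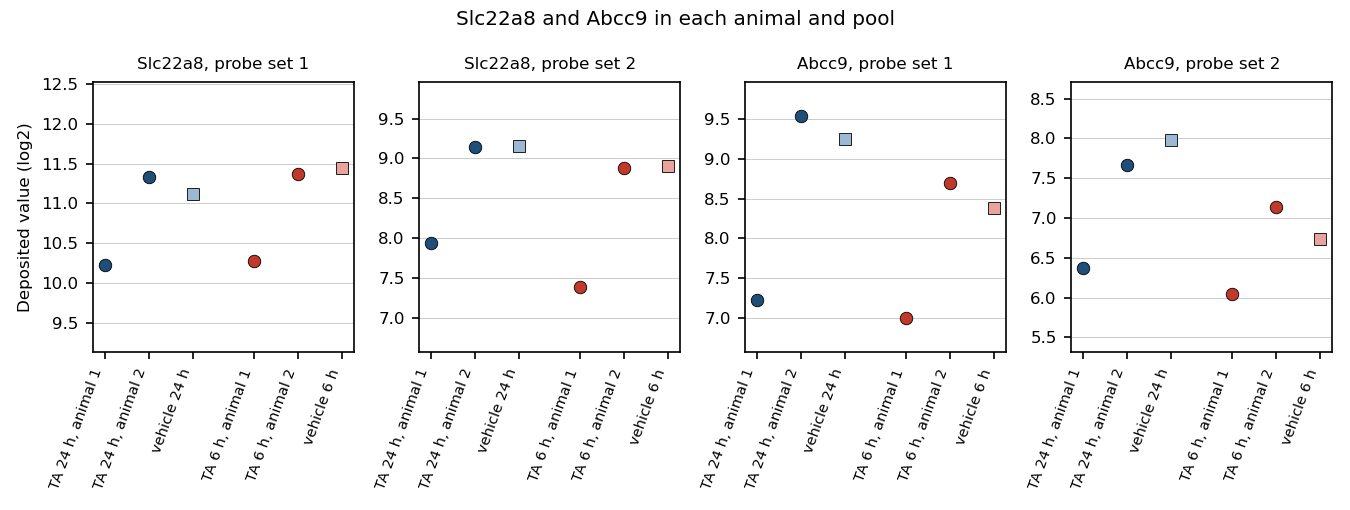
Deposited log2 values (y axis) of the 2 measured probe sets each of Slc22a8 and Abcc9 in each TA animal (circles) and vehicle pool (squares), 24 h left and 6 h right, each panel on its own range of equal height. Animal 1 is the lowest array of its time in all 4 panels.

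Markers of other cell types were set beside these splits. The summed level of 7 stellate cell markers was 12.19 and 12.67 in TA livers at 24 h against 12.80 in the vehicle pool, and 13.57 and 13.13 in TA livers at 6 h against 13.17 in the vehicle pool. It was thus lowest in animal 1 of 24 h and highest in animal 1 of 6 h, both of which were low in Abcc9. The sum is of linear values and rests mostly on Col3a1. At 24 h Col3a1, Col1a1, Lrat and Reln were lowest in animal 1, but Dcn was lowest in animal 2. Dcn was at 6.87 and 4.88 in TA livers at 24 h, against 7.14 in the vehicle pool. The summed level of 5 endothelial markers was 12.52 and 12.91 in TA livers at 24 h against 12.85 in the vehicle pool, and 12.73 and 12.80 in TA livers at 6 h against 12.99 in the vehicle pool. The sum was the lowest of its time in animal 1 at both times, but single genes of the list differed. At 6 h Lyve1 and Fcgr2b were lowest in animal 1, and Kdr was in the middle. Pecam1 was highest in animal 1 at 6 h, at 6.62 against 6.49 in animal 2 and 6.37 in the vehicle pool. So was Stab2, at 9.17 against 8.77 in animal 2 and 8.57 in the vehicle pool. At 24 h Fcgr2b was lowest in animal 2. At 24 h animal 1 was also the lowest for the 6 macrophage markers, with 12.42 and 12.87 in TA livers against 12.65 in the vehicle pool, and for the 3 erythroid markers, with 13.52 and 14.29 in TA livers against 14.05 in the vehicle pool, whereas at 6 h it was the highest for both lists. Of the 7 stellate cell markers, Des and Rgs5 were below the filter. Over the same arrays 4 of 5 kidney proximal tubule markers were below the filter, at 2.19 to 2.54, so that the organic anion carriers named for kidney were measured with those markers at the floor. All 6 pericentral hepatocyte markers were measured, and their summed level was 15.53 and 16.05 in TA livers at 24 h against 15.67 in the vehicle pool, and 15.89 and 15.75 in TA livers at 6 h against 15.83 in the vehicle pool. The part of these markers in the transporter values was not tested.

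Several further members fall outside these role groups. Slc22a18, an imprinted carrier, was at 12.49 and 12.43 in TA livers at 24 h against 12.20 in the vehicle pool, with 12.81 and 12.64 in TA livers at 6 h against 12.82 in the vehicle pool. Slc22a17, a receptor for lipocalin, was at 5.80 and 6.33 in TA livers at 24 h against 6.66 in the vehicle pool, with 6.91 and 6.68 in TA livers at 6 h around the vehicle pool at 6.81. Slc22a23, an orphan carrier, was at 11.43 and 10.56 in TA livers at 24 h around the vehicle pool at 10.95, and at 10.34 and 10.13 in TA livers at 6 h against 10.72 in the vehicle pool. Slc22a17 and Slc22a23 thus lay below the pool in both animals at 1 time and around it at the other. Slc22a12, the urate transporter of the kidney that uricosuric drugs inhibit, lay between 3.13 and 3.27 on all 6 arrays, just above the filter. Slco3a1 was between 3.44 and 3.53 on 5 arrays and at 4.26 in animal 1 of TA at 24 h. Abcb1b, Abcg3, Abca6 and Slco1a2, also looked up by name, had no probe set of their own. Close copies such as the Slco1a genes of chromosome 4, Abca8 with Abca8a and Abcb1a with Abcb1b may share probes, which was not tested.

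Of 35 regulators and partner genes listed with the transporters, 25 were measured, and limma called 0 of them in any comparison. The unadjusted p was under 0.05 for 2 of the 25 at 24 h and for 4 at 6 h, against 5.28% and 5.84% of all probe sets. Their median difference of TA from vehicle was 0.05 at 24 h and -0.07 at 6 h. At 24 h 9 were higher (36%) and 7 lower (28%) in both animals, against 28.1% and 34.5% of all measured genes. At 6 h 6 were higher (24%) and 11 lower (44%), against 22.9% and 38.4%. The nuclear receptor Nr1i3 (CAR) was at 3.67 and 6.24 in TA livers at 24 h, around the vehicle pool at 4.42, and at 7.12 and 6.66 in TA livers at 6 h, around the vehicle pool at 6.72. All 3 arrays of 24 h were below all 3 of 6 h, as for 8 of the 25 genes (32%), against 15.1% of all measured genes. The 8 include the transporters Slc10a1, Abcb11 and Abca1. The reverse held for 3 of the 25 genes (12%), Nr1h4, Nr1h3 and Nherf1, against 13.3% of all measured genes. Nr0b2 (SHP), a repressor in bile acid signalling, was at 7.96 and 9.21 in TA livers at 24 h against 9.26 in the vehicle pool, with 8.32 and 9.06 in TA livers at 6 h against 9.32 in the vehicle pool. It was lowest in the same 2 animals as Slc22a8 and Abcc9. Nfe2l2 (Nrf2) was at 11.47 and 11.17 in TA livers at 24 h around the vehicle pool at 11.43, and at 10.997 and 10.79 in TA livers at 6 h against 11.57 in the vehicle pool. Nqo1 was at 11.91 and 11.74 in TA livers at 24 h, against 11.69 in the vehicle pool. At 6 h Nqo1 was at 11.60 and 11.81 in TA livers, against 10.997 in the vehicle pool. The vehicle pool of 24 h lay between these 2 TA livers.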

How the data were processed

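Liver RNA was measured on 6 Affymetrix Rat230_2 arrays, with groups taken from the labels. The authors deposited 1 value per probe set on a log2 scale, and R 2.0.1, affy 1.5.8, RMA and GCRMA are named per the submitters' processing notes. No source used here says whether RMA or GCRMA made the values. Values have a dense floor near 2 to 3 (log2), and arrays give no counting depth, so that their number limits the precision.

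The 57 control probe sets were left out of 31099. The platform annotation, which can be old, gave 20826 of the others 1 symbol, 436 several and 9780 none. All 58 transporter gene IDs were found in RefSeq's table and 0 symbols changed. Probe sets with a mean above the 40th percentile were kept, and a gene was represented by its probe set with the highest mean. The 4 groups' means were compared by limma 3.58.1, run in R 4.3.3 with its functions lmFit and eBayes (2 residual and 1.60 prior degrees of freedom), two-sided, with Benjamini-Hochberg adjustment over 18625 probe sets. The labels name the animals as separate, so p-values measure the spread between TA animals and assume that the pools vary alike.

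Named genes were 29 liver transporters, those at least 1.5-fold from vehicle in both animals, the 5 largest differences each way per time and those over 1 (log2) apart within a group or between pools. Abcb8, Abcb10, Abcd4, Abcg1, Slc22a12, Slc22a15 and Slc22a23 were named after their values were seen. The regulators and partner genes were planned as counts only. Nr1i3, Nr1h3, Nr1h4, Nherf1, Slc10a1, Abcb11, Abca1, Nr0b2, Nfe2l2 and Nqo1 were named beyond that plan. The members and lists were chosen with earlier results of these data known. On simulated arrays of 18625 probe sets, 30 of 50 changes of 2 (log2) at 24 h and 24 of 50 at 6 h were recovered, and 2 of 50 and 0 of 50 changes of 1. False calls were 9 at 24 h and 5 at 6 h. The same simulated arrays also held 50 changes of 3 and 50 of 4. They had independent noise on every array and no fluidics run, so recovery in the measured data can differ. Alternatives covered the filter, prior, scaling, control pool, replicate block, fluidics run and left-out arrays. Python 3.11.15 with pandas 2.3.3 and matplotlib 3.10.9 was used for tables and plots.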

Additional observations from a re-analysis of the deposited data

Results flagged for a closer look

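For 11 of the 39 measured transporter genes, both TA animals lay on one side of the vehicle pool at 24 h and both on the other at 6 h. Each gene was read by its probe set with the highest mean. The share of all measured genes that crossed in this way was not counted. Some crossings rest on very small distances from the pool. For Abcg1 animal 2 lay at -0.014 at 24 h and 0.007 at 6 h. For Slc22a18 animal 1 lay at -0.007 at 6 h, and for Abcc4 the TA animals lay at -0.011 and -0.009 at 24 h. The difference at 24 h minus that at 6 h was -1.92 for Abcb9, -1.08 for Slc22a5, -0.77 for Abcc1, -0.54 for Abcc4, -0.53 for Abcd4, -0.33 for Abca2 and -0.15 for Abcg1. It was 1.11 for Abcb1a, 0.40 for Abcb4, 0.36 for Slc22a18 and 0.21 for Slco1b2. None of these passed limma's test of that difference, with adjusted p = 0.85 for Abcb9 and 1 for each of the others. The second measured probe sets of Slco1b2 and Abcb1a did not show the crossing, with differences of -0.28 at 24 h and -0.55 at 6 h for Slco1b2, and -0.01 at 24 h and -0.81 at 6 h for Abcb1a. The vehicle pool of each time is 1 array and enters every one of these values: for Abcb9 the pools were 4.46 at 24 h and 2.48 at 6 h, and for Abcb1a 5.56 at 24 h and 7.22 at 6 h. For Slc22a5 the pools were 6.68 at 24 h and 6.71 at 6 h, and for Abcc1 2.93 at 24 h and 3.33 at 6 h.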

How the results depend on the processing

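No transporter passed limma's test in any comparison under any of the alternatives run. Counts over all probe sets moved between 0 and 2. At 24 h the 1 call became 0 with a mean above 5, with both pools as 1 control group, with the pool of the other time, with the replicate block and with the fluidics run as a block, and 2 with a trend in the prior, while leaving out an array gave 0 to 2. At 6 h the pool of the other time gave 1. For the mean of the times and for the difference between them the 1 call became 0 with a mean above 5, with the pools merged, with the replicate block, with the fluidics block and without any TA array in turn, and the mean gave 2 with a trend. With the pools merged, however, the difference between the times becomes that between TA livers of 24 h and 6 h, with no vehicle in it. That setting therefore could not test the call for the difference between the times. Animals with the same replicate number share only that number: over 18625 probe sets the difference of animal 1 from animal 2 at 24 h and that at 6 h correlated at -0.079. With the replicate block as a pairing the calls were 0 at 24 h and 0 at 6 h.

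Of the alternatives run, the choice of pool moved the transporter values most. Against the pool of the other time, 10 of 49 probe sets were at least 1.5-fold away in both animals at 24 h instead of 1, and 10 at 6 h instead of 4. The share of all probe sets past that limit against the other pool was not counted. The pools themselves were at least 2-fold apart for 16.3% of the transporter probe sets, against 3.17% of all. Against the pool of the same time, 0 were at least 2-fold away in both animals at 6 h. The median over the genes at 24 h was -0.018, and became -0.355 against the other pool, -0.267 with the pools merged and 0.009 after quantile normalization. At 6 h it was -0.018, and became 0.258, 0.124 and 0.017 under these, -0.035 with the mean of a gene's probe sets and -0.1 with a mean above 5, with -0.007 to 0.005 when either animal was left out. Against the other pool Abca3, Abcb1a, Abcb6, Abcb9, Abcc2, Abcd3, Slc22a18 and Slc22a7 turned sign at 24 h, and Abcb1a, Abcb4, Abcb9, Slc22a4, Slco1a1 and Slco1a4 at 6 h, counting those over 0.2 (log2) from their own pool. In all, 13 of 28 named genes turned sign at 24 h and 13 at 6 h, since the pools themselves differ. The share of all measured genes that turned sign was not counted. Some of the 28 were named for their difference from their own pool, so these counts describe the named genes only.

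The count of probe sets lower on every array of 24 h was 20 of 49 (40.8%, against 14.1% of all). It was 18 after quantile normalization (36.7%, against 10.2%) and 18 after centring (36.7%, against 9.99%). In the second fluidics run alone, where fewer arrays had to agree, it was 32 (65.3%, against 39.6%). These alternatives were added after seeing the data.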
